A study of Mus musculus with 18 samples.

Results

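Oocytes of primordial follicles from cultured ovaries (*in vitro* group) were compared with those from non-cultured ovaries (*in vivo* group). The members are the libraries whose labels name oocytes from primordial follicles, 3 *in vitro* and 3 *in vivo*, and they make up 6 of the 18 libraries of the series. The other libraries come from oocytes of primary follicles and from mature MII oocytes. All mice were of the C57Bl/6j x CBA/J strain. The *in vivo* ovaries were taken at an age of 14 days, and the *in vitro* ovaries were taken at 7 days and kept for 7 days in α-MEM with 10% fetal bovine serum and 100 mIU/ml recombinant follicle-stimulating hormone. No treatment other than the culture separated the groups. Oocytes surrounded by flattened pregranulosa cells were cut from fixed, paraffin-embedded sections by laser capture microdissection (LCM), which was guided by morphology and marked no gene. RNA of the caps was pooled per stage and amplified, and coding sequence was then captured with the TruSeq RNA Access kit. Nothing in the labels says that the replicate libraries came from separate animals, so the p-values below measure the spread between these libraries, which may be technical.

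A primordial follicle holds a small oocyte that rests in meiotic prophase inside a single layer of flattened pregranulosa cells. PI3K and AKT signaling drives the transcription factor FOXO3 out of the nucleus and activates the mTOR kinase, which ends this rest, and the oocyte then grows and stores the zona pellucida proteins, secreted growth factors and maternal RNAs of the mature egg. In the ovary of a young mouse most follicles are still primordial, and culture of the whole ovary is used to let them start growing outside the animal.

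The libraries differed strongly within each group. Total counts ranged from 15149564 to 29205503, and 5703 to 10240 genes had over 3 reads, a floor of 3 reads that is 0.111 to 0.216 CPM (counts scaled to library total and TMM factor). Of the 14017 genes with over 3 reads in at least 1 of the 6 libraries, 2757 passed that floor in all 6, and 3420 did so in a single library. Spearman's rho across genes, which are not independent replicates, was 0.484 to 0.601 for pairs of libraries within a group (median 0.540) and 0.475 to 0.615 for pairs between groups (median 0.528), so the ranges overlapped almost wholly. The common coefficient of variation between replicates that edgeR estimated was 2.02. It is the square root of the common dispersion over the 12 LCM libraries of primordial and primary follicles.

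Markers of the oocyte were present in every library. All 16 genes of the oocyte marker list were measured, 13 of them with over 3 reads in all 6 libraries, and their summed level was 854 to 1044.1 CPM *in vivo* and 265 to 1576.3 CPM *in vitro*. *Ddx4*, the germ cell RNA helicase, had 5682, 8944 and 6357 reads in *in vivo* libraries 1, 2 and 3 and 72, 1749 and 6114 reads in *in vitro* libraries 1, 2 and 3. The order of libraries 1, 2 and 3 is kept in every such list below. *In vitro* library 1 thus held the least of this marker, and the same library had the lowest sum of the oocyte list.

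Markers of neighbouring cells were present as well. Of the granulosa list, 12 genes had at least 10 counts in total over the 12 LCM libraries. They summed to 521 to 1661.4 CPM *in vivo* and 830 to 3815.1 CPM *in vitro*. However, *Fshr*, *Cyp19a1* and *Hsd17b1*, genes of growing and steroid-making granulosa cells, had 0 reads in all 6 libraries. *Amh*, which granulosa cells make once a follicle starts to grow, had 0 reads in the 3 *in vivo* libraries and 14, 28 and 4 reads *in vitro*. Of the theca and stroma list, 11 genes passed the same filter, and they summed to 2765.6 to 4576.5 CPM *in vivo* and 1600.8 to 9874.2 CPM *in vitro*. The collagen gene *Col1a1* made up most of the highest sum, with 9286, 8266 and 117039 reads *in vitro*, whereas the theca enzymes *Cyp17a1* and *Cyp11a1* had 0 reads in all 6. Surface epithelium markers stood out in *in vivo* library 1 (591 CPM) and *in vitro* library 1 (235 CPM) and were under 1 CPM in the other libraries. In *in vitro* library 1 this sum was *Krt8* alone, while *Krt18*, *Krt19*, *Upk1b*, *Upk3b* and *Msln* had 0 reads. Erythroid genes were seen in *in vivo* library 2 (76.2 CPM), and the immune list summed to at most 0.791 CPM, with *Ptprc* and *Adgre1* at 0 reads. Endothelial genes reached 916.9 CPM in *in vitro* library 1 and 0 to 64.4 CPM elsewhere. In *in vitro* library 1 *Tek* alone gave 905 CPM and *Tie1* 11.9 CPM, while *Pecam1*, *Cdh5* and *Kdr* had 0 reads. Smooth muscle genes lay between 0.835 and 188.5 CPM. The part of these cells in the results below was not tested, and in such pooled samples fewer cells of a type cannot be told apart from less RNA per cell.

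**Figure D1:**
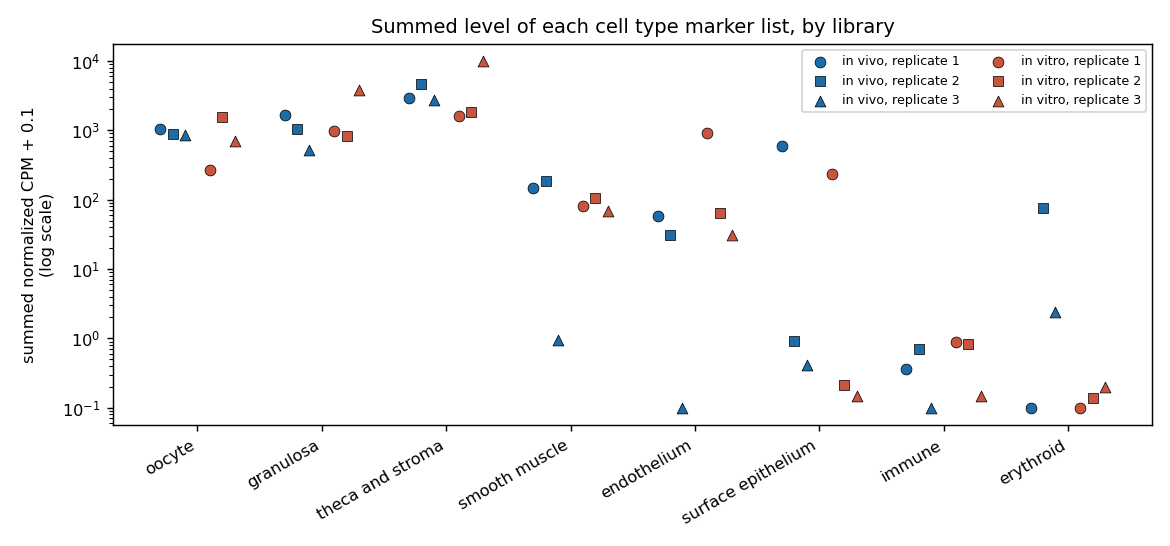
Summed level of each cell type marker list in the 6 libraries. The vertical axis is the sum of normalized CPM plus 0.1 on a log scale, colour gives the group and shape the replicate. Oocyte, granulosa and stroma markers were at 265 CPM or more in every library, while surface epithelium and erythroid genes were above 50 CPM in 2 and 1 libraries.

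In edgeR's quasi-likelihood test 5 of the 15317 genes tested (0.0326%) passed the threshold, a Benjamini-Hochberg adjusted p under 0.05 with a fold change of at least 2. Of these, 4 rose *in vitro* (0.0261%) and 1 fell (0.00653%). The 4 that rose were *Ptp4a1*, *D6Ertd527e*, *Tubb3* and *Tubb6*, and the 1 that fell was *Hist1h2ai*. At an unadjusted p under 0.05 there were 691 genes higher *in vitro* (4.51%) and 1108 lower (7.23%).

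*Ptp4a1* encodes a small membrane-bound tyrosine phosphatase, and its gene lies on chromosome 1 at 30940302 to 30949309 (GRCm38, minus strand), where it overlaps another gene on the same strand. It had 8, 15 and 9 reads *in vivo* and 30050, 82 and 5996 reads *in vitro*. All *in vitro* libraries were above all *in vivo* libraries, though library 2 lay far nearer to them than libraries 1 and 3. The mean was 0.456 ± 0.107 CPM *in vivo* and 818 ± 1172.0 CPM *in vitro* (SD, n = 3 each), a log2 fold change of 10.79 ± 2.48 (SE, edgeR adjusted p = 0.0414).

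*D6Ertd527e*, a gene on chromosome 6 at 87104746 to 87112997, had 1, 1 and 4 reads *in vivo* and 2, 52622 and 12878 reads *in vitro*. *In vitro* library 1 was as low as the *in vivo* libraries, so the groups overlapped. Its log2 fold change was 13.06 ± 2.67 (SE, edgeR adjusted p = 0.0150), with means of 0.0962 ± 0.0974 CPM *in vivo* and 856 ± 993.5 CPM *in vitro* (SD, n = 3 each).

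Both other genes that rose encode β-tubulins, subunits of microtubules. *Tubb6*, on chromosome 18 at 67390717 to 67402749, had 2, 5 and 2 reads *in vivo* and 1, 22015 and 22575 reads *in vitro*, a log2 fold change of 12.24 ± 2.69 (SE, edgeR adjusted p = 0.0240). *Tubb3*, on chromosome 8 at 123411424 to 123422015, had 0, 1 and 8 reads *in vivo* and 0, 34275 and 2 reads *in vitro*, a log2 fold change of 11.42 ± 2.51 (SE, edgeR adjusted p = 0.0240). *In vitro* library 1 was low for both, and for *Tubb3* a single library carried 99.99% of the *in vitro* level. *Tubb3* also overlaps a gene on the same strand.

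*Hist1h2ai*, a histone H2A gene of the cluster on chromosome 13 (21716422 to 21716814), fell by 14.20 ± 3.08 on the log2 scale (SE, edgeR adjusted p = 0.0240). It had 0, 26 and 63529 reads *in vivo* and 0, 4 and 0 reads *in vitro*. One *in vivo* library held 99.97% of the group's level, and the other 2 overlapped the *in vitro* group. Copies of this histone family are nearly identical and the gene overlaps another on the opposite strand, so its count is uncertain.

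Leaving out 1 library at a time changed these calls. When *in vitro* library 2 was left out, the log2 fold change of *Tubb3* turned to -1.44 (edgeR adjusted p = 0.870), and without *in vivo* library 3 that of *Hist1h2ai* was -3.09 (adjusted p = 0.850). *Ptp4a1* kept its call only without *in vitro* library 2 (adjusted p = 0.0492), *Tubb6* only without *in vitro* library 1 (0.00257), *Hist1h2ai* only without *in vivo* library 1 (0.0360), and *D6Ertd527e* and *Tubb3* without *in vitro* library 1 (0.000983 and 0.00159) or 3 (0.0106 for each). With any *in vivo* library left out, none of the 4 genes that rose passed, at adjusted p values of 0.121 to 0.439, although each kept its direction.

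**Figure D2:**
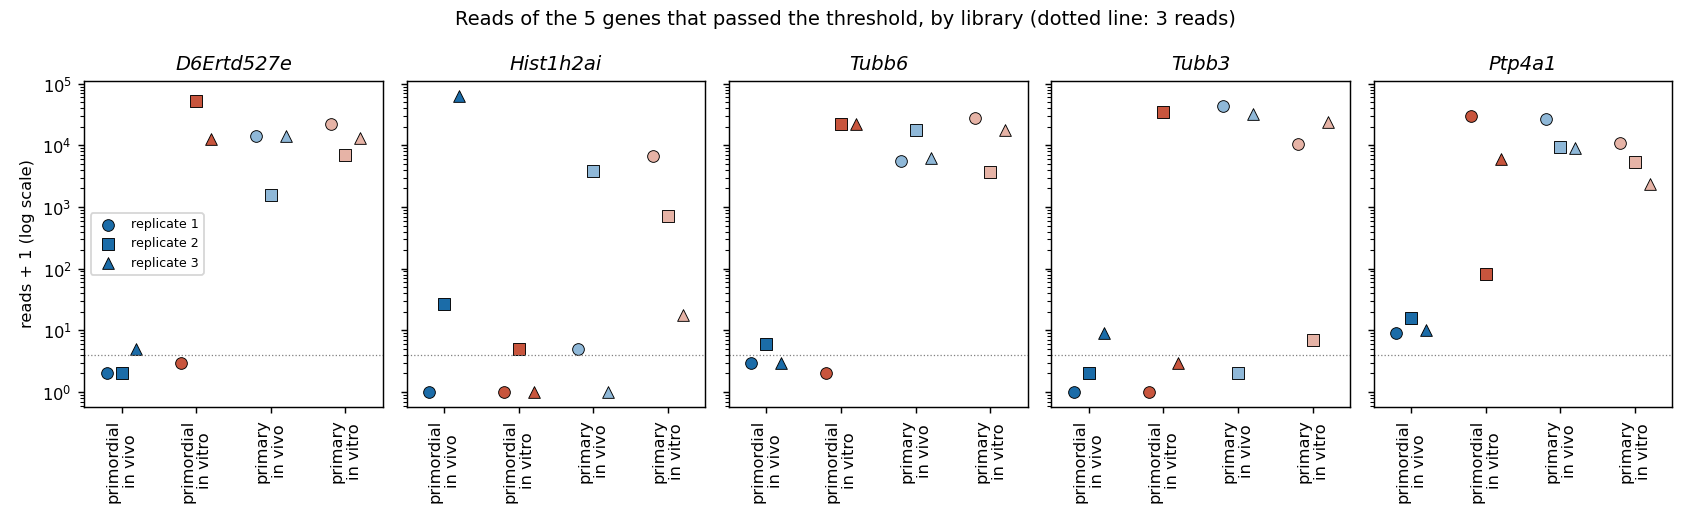
Reads of the 5 genes past the threshold in the primordial and the primary libraries. The vertical axis is reads plus 1 on a log scale, each point is a library and the dotted line marks 3 reads. In *Ptp4a1* the 3 primordial *in vivo* libraries sit at 8 to 15 reads, below every other library shown, while in *Tubb3* and *Hist1h2ai* a single primordial library stands far above the other primordial libraries.

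The oocytes of primary follicles were in the same model, and they set these levels in context. *Ptp4a1* had 26314, 9485 and 8974 reads in primary oocytes *in vivo* and 11071, 5430 and 2376 reads in primary oocytes *in vitro*. *D6Ertd527e* (1594 to 14340 reads *in vivo*, 6972 to 22102 *in vitro*) and *Tubb6* (5584 to 17684 and 3736 to 27490) were high in all 6 primary libraries too. For these 3 genes the primordial *in vivo* group was the only one of the 4 in which every library had 15 reads or fewer. A test of the difference of the culture effect between primordial and primary follicles called 16 genes (0.104% of those tested), among them all 5 above, with edgeR adjusted p values of 0.0229 for *D6Ertd527e* and *Tubb3*, 0.0277 for *Hist1h2ai*, 0.0284 for *Ptp4a1* and 0.0490 for *Tubb6*. These 5 genes were picked by the primordial effect, which is part of this contrast, so their calls are not separate evidence. Without primordial *in vivo* library 3 this test called 0 genes.

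The sequence just before the start of these genes is shown because 4 of them rose from near 0. RefSeq promoters (GRCm38.p6) were matched for 4 of the 5 called genes, and *Tubb6* is named only. Each run gives the 250 bases before the RefSeq start, 5′ to 3′ on the gene's strand, with matches on either strand in capitals. The motifs searched were TATAAA, the core promoter element, the letters CCAAT, bound by NF-Y, the Sp1 motif GGGCGG, the palindrome TGACGTCA of the cAMP response element and the E-box letters CACGTG. The windows are chr1:30949756-30950005 (minus strand) for *Ptp4a1*, chr6:87104496-87104745 (plus) for *D6Ertd527e*, chr8:123411303-123411552 (plus) for *Tubb3* and chr13:21716162-21716411 (plus) for *Hist1h2ai*, which RefSeq lists as *H2ac13*. RefSeq and GENCODE starts differ for some genes, so the window of *Tubb3* reaches into the GENCODE gene given above and those of *Ptp4a1* and *Hist1h2ai* end some way before it.
Ptp4a1: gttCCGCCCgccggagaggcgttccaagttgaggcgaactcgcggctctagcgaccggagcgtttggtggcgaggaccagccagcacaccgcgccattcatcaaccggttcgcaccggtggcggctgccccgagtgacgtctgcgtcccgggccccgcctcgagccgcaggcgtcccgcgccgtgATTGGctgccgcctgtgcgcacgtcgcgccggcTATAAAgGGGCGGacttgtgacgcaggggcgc
D6Ertd527e: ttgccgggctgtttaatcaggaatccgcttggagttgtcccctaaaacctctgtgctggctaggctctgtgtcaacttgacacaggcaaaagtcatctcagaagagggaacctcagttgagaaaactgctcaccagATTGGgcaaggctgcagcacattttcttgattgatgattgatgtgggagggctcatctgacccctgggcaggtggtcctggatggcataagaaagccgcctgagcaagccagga
Tubb3: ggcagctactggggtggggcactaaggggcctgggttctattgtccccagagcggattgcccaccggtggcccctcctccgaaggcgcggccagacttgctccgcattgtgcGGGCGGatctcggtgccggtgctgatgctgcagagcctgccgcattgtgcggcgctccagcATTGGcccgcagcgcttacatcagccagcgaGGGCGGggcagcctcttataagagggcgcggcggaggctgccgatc
Hist1h2ai: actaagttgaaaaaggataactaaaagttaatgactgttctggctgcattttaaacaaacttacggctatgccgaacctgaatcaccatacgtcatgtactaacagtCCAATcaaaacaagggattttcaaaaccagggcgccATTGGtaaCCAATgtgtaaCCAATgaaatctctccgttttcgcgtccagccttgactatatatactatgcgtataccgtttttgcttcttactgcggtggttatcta

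GC content differed widely between the 4 windows. It was 71.2% with 37 CpG for *Ptp4a1* and 68.0% with 21 CpG for *Tubb3*, against a median of 52.0% and 6 CpG over 27025 promoters, whereas *D6Ertd527e* had 52.0% with 3 CpG and *Hist1h2ai* 39.6% with 10. *Ptp4a1* held TATAAA once (13.0% of promoters hold it) and the Sp1 motif 2 times (32.9%), and *Tubb3* held the Sp1 motif 2 times. The letters CCAAT stood in all 4 windows, 4 times in that of *Hist1h2ai* and once in each of the others, and in 34.5% of all promoters. None of the 4 held the cAMP response element (1.62%) or the E-box (6.05%). A match of letters is a description of the window and not a site of binding.

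Genes whose groups did not overlap were counted next, since the smallest two-sided p of an exact permutation test with 3 libraries a group is 0.1. A gene was counted when every library of the higher group had over 3 reads and a higher CPM than every library of the other group. The reads of such a gene can still overlap, since CPM also rests on library total and TMM factor. Those of *Mcm3*, *Cox6c*, *Uqcrq*, *Insig1*, *Hspa5* and *Rpl24* below did. There were 293 such genes higher *in vitro* (1.91% of 15317) and 576 lower *in vitro* (3.76%). Their median fold difference was 16.7 in the first set and 19.9 in the second, and 66 and 191 of them had an unadjusted edgeR p under 0.05. Only *Ptp4a1* passed the adjusted threshold. The 12 genes with the smallest p in each direction are described next. Overlap with other annotated genes was taken from whole gene spans, introns included. By this measure only *Ankra2*, *Ror2*, *Hcfc2*, *Gpr143* and *Hist1h2bb* of these 24 overlap no other annotated gene. Whether the others share exons with another gene was not tested, so their counts may be uncertain.

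Among those higher *in vitro*, 5 had 0 reads in all 3 *in vivo* libraries. *Memo1*, which links receptor tyrosine kinases to the cytoskeleton, had 812, 3216 and 5710 reads *in vitro*, at least 1144.1-fold above the floor of 3 reads per library. *Ankra2*, an ankyrin repeat protein, had 7314, 719 and 192 reads *in vitro* (at least 1417.7-fold). *Ror2*, a receptor tyrosine kinase that binds Wnt5a, had 2672, 2020 and 15 reads (at least 675.1-fold). All 3 genes were above the floor in each *in vitro* library, though *Ror2* was close to it in library 3. *Nrp1*, a coreceptor for semaphorins and VEGF, had 4056, 28 and 20 reads, and *Ano8*, a membrane protein of the anoctamin family, had 71, 7 and 2557 reads. In these last 2 genes a single library held nearly all reads.

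The other 6 had reads in at least 1 *in vivo* library. *Soat1*, the enzyme that esterifies cholesterol for storage, had 56, 271 and 4 reads *in vivo* and 18102, 8947 and 6221 reads *in vitro*, or 4.22 ± 5.17 and 644 ± 570 CPM (SD, n = 3 each). *Nmt1*, which attaches myristate to proteins, had 1504, 251 and 2 reads *in vivo* and 12197, 43030 and 9198 reads *in vitro*, or 24.6 ± 34.8 and 971 ± 579 CPM. *Usp3*, a deubiquitinase of histones, had 0, 9 and 28 reads *in vivo* and 4375, 488 and 7814 *in vitro*. Each of these 3 genes was well above the floor in every *in vitro* library. *Zmynd8*, a reader of histone marks, had 99, 16 and 8 reads against 276, 22847 and 174. *Grip1*, a synaptic scaffold, had 0, 18 and 0 reads against 15, 5709 and 3578, and *Cacna1c*, the pore of the L-type calcium channel, had 0, 1 and 0 against 151, 4 and 4794. For *Zmynd8*, *Grip1* and *Cacna1c* the nearest libraries of the groups were close. None of these 11 genes passed the adjusted threshold (edgeR adjusted p = 0.359 for each).

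Of the 12 genes lower *in vitro*, 4 had 0 reads in all *in vitro* libraries. *Hcfc2*, a relative of the transcriptional coregulator host cell factor, had 226, 4007 and 3711 reads *in vivo*, so its *in vitro* level was at least 745.9-fold lower. *Gpr143*, a receptor best known from pigment cells, had 3927, 971 and 11854 reads *in vivo* (at least 1743.9-fold lower *in vitro*). *Jun*, an immediate early transcription factor of the AP-1 complex, had 8537, 252 and 107 reads *in vivo* (at least 807.1-fold lower). *Homer1*, a synaptic scaffold, had 9476, 2007 and 7 reads *in vivo*. All 4 genes were spread widely between the *in vivo* libraries, and *Homer1* was near the floor in library 3.

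*Slc33a1*, which carries acetyl-CoA into the endoplasmic reticulum, had 970, 2896 and 31286 reads *in vivo* and 0, 1 and 1 *in vitro*, the smallest p of the 12 (edgeR adjusted p = 0.232). *Pdk2*, a kinase that switches off pyruvate dehydrogenase, had 7697, 97 and 16596 reads *in vivo* and 1 read in each *in vitro* library. *Lrrc4*, an adhesion protein of synapses, had 1685, 4846 and 11680 reads against 0, 1 and 0. The *in vitro* level of these 3 genes was not above the floor. The splicing kinase *Clk4* had 10, 73 and 13374 reads *in vivo* and 0, 1 and 0 *in vitro*, and the cullin adaptor *Klhl15* had 36, 2090 and 9669 against 0, 5 and 0. *Dmd*, dystrophin, had 19, 7693 and 8499 reads against 0, 1 and 10. *Hist1h2bb*, a histone H2B gene of a multigene family, had 35310, 10833 and 2730 reads against 1, 436 and 3. Except for *Slc33a1*, *Hcfc2* (0.295) and *Pdk2* (0.315), the 12 genes shared an edgeR adjusted p of 0.359.

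*Neb* was the one gene of the 24 that was abundant in both groups. It encodes nebulin, the giant protein of skeletal muscle thin filaments, and overlaps other genes on both strands. It had 175860, 301158 and 376268 reads *in vivo* and 10901, 39713 and 18756 reads *in vitro*, or 12778.3 ± 6204.4 and 1053.1 ± 365 CPM (SD, n = 3 each). The lowest *in vivo* library was thus above the highest *in vitro* library, with a log2 difference of -3.60 ± 1.08 (SE, edgeR adjusted p = 0.359).

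**Figure D3:**
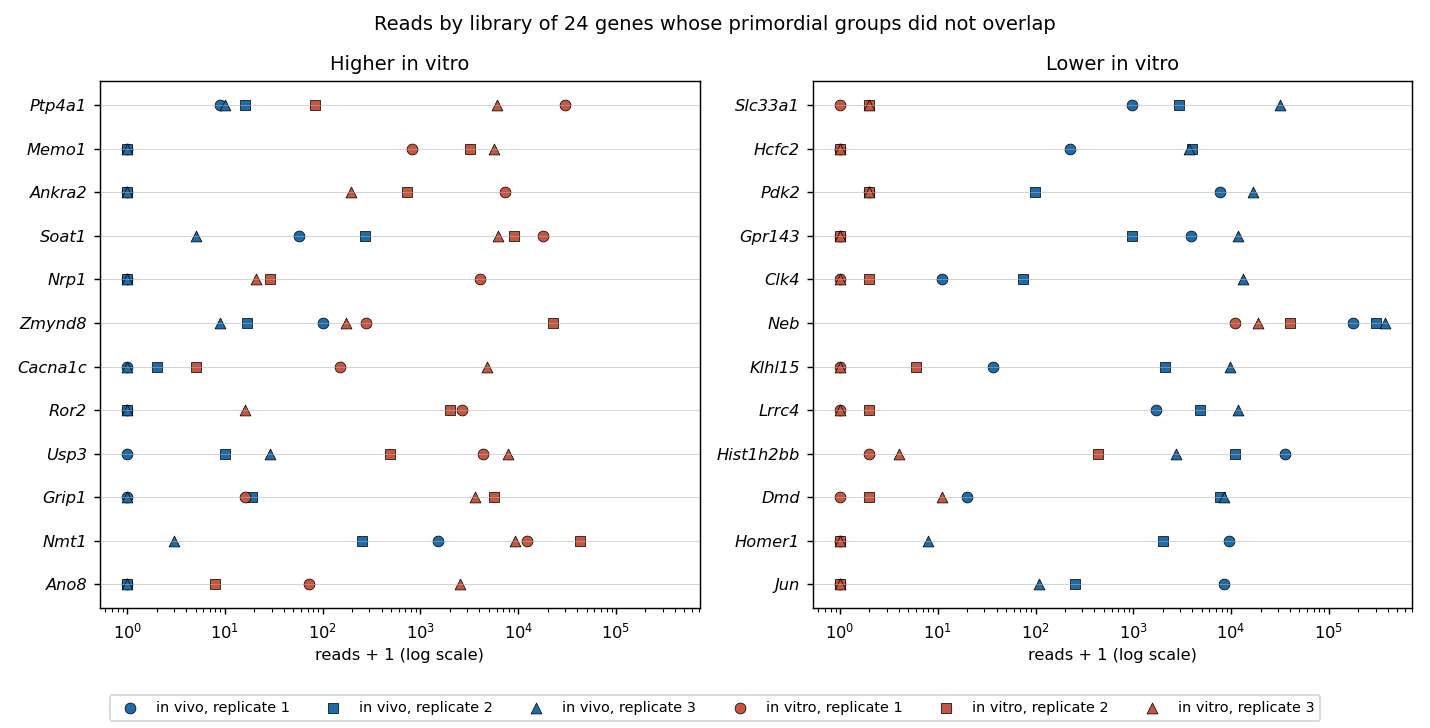
Reads of the 24 named genes whose groups did not overlap, 12 in each direction, ordered by p. The horizontal axis is reads plus 1 on a log scale, colour gives the group and shape the replicate. Most genes are at or near 0 in every library of 1 group and spread over several powers of 10 in the other, while *Neb* has 10901 reads or more in all 6 libraries.

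A second tool made far more calls. DESeq2 with its defaults called 796 genes (5.20%), 330 of them higher *in vitro* (2.15%) and 466 lower (3.04%), of which 83 and 182 had groups that did not overlap. In 369 of its 796 calls (46.4%) 1 library held at least 90% of the higher group's level, against 48.1% of all genes tested. In 426 of its 796 calls no library of the lower group was above 3 reads, against 3933 of the 15317 genes tested. Its smallest adjusted p among genes without overlap went to *Gpr143* (9.71e-21), *Memo1* (4.72e-19), *Ankra2* (6.98e-19), *Vangl2* (1.07e-15), *Jun* (3.76e-15), the gene models *Gm15500* (7.05e-14) and *Gm27927* (2.29e-13), and *Frmd4a* (3.55e-12). All 8 had 0 reads in every library of 1 group. *Vangl2*, a planar cell polarity protein, had 109, 1881 and 171 reads *in vitro*, and *Frmd4a*, a scaffold of epithelial polarity, had 156, 4 and 82. *Gm15500* had 405, 3730 and 7 reads *in vitro*, and *Gm27927* had 415, 186 and 4 *in vivo*. In edgeR the adjusted p of these 8 genes was 0.359 to 0.363, so the calls depended on the tool.

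The genes of the oocyte program came first among the gene lists, which were chosen with earlier results of these data known. All 50 oocyte genes were tested, 24 had over 3 reads in all 6 libraries (48.0%, against 18.0% of all genes tested), and none was called by edgeR. At an unadjusted edgeR p under 0.05, 5 of the 50 were higher and 1 lower, beside 4.51% and 7.23% of all genes. Their median log2 fold change was 0.87, beside 0.00 over all genes tested. With genes at the floor set to their bound the medians were 0.88 and -0.07. *In vitro* library 2 was the highest library for 27 of the 50 oocyte genes and for 18.7% of all genes detected. Without that library the list's median was -0.62, and that of all genes -0.61.

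The secreted and egg coat genes showed the pull of that library. *Gdf9*, an oocyte growth factor, had 135, 101 and 15 reads *in vivo* and 32, 7061 and 5 *in vitro*. *Bmp15*, its partner, had 0, 1 and 0 reads *in vivo* and 0, 69 and 6 *in vitro*. *Zp2* and *Zp3*, zona pellucida proteins, had 860 and 2108 reads in *in vitro* library 2 and 45 to 179 reads in the other 5. For all 4 the groups overlapped outside library 2. *Zp1*, another coat protein, had a different pattern. It had 41, 536 and 20 reads *in vivo* and 2599, 5427 and 635 *in vitro*, so its groups did not overlap, at 7.56 ± 10.7 and 139 ± 94.4 CPM (SD, n = 3 each, log2 fold change 4.20 ± 2.97 SE, edgeR adjusted p = 0.542, DESeq2 adjusted p = 0.0298).

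Some maternal genes of the growing oocyte followed the same library, while *Taf4b* and *Astl*, given below, were highest in *in vitro* libraries 3 and 1. *Zar1*, an RNA-binding factor of the egg to embryo transition, had 4, 0 and 0 reads *in vivo* and 0, 2819 and 68 *in vitro*. *Npm2*, a histone chaperone, had 0, 0 and 4 against 0, 915 and 1, and *Khdc3* of the subcortical maternal complex had 0, 0 and 0 against 0, 170 and 20. These genes were at or near 0 in *in vitro* library 1 and in all *in vivo* libraries. *Padi6* and *Nlrp5*, of the same complex, were detected everywhere, with 415, 277 and 92 against 43, 1156 and 137 reads and with 674, 263 and 182 against 47, 1629 and 250. DESeq2 called 5 of the 50 genes higher *in vitro* and none lower, beside 2.15% and 3.04% of all genes. These were *Zp1*, *Khdc3*, *Taf4b*, a germ cell transcription factor subunit (5, 1 and 0 reads against 14, 10 and 1327), *Astl*, the egg protease ovastacin (15, 12 and 0 against 1796, 85 and 1), and *Rspo2*, an oocyte signal to granulosa cells (8, 17 and 2 against 1832, 17714 and 6).

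Transcription factors and RNA-binding proteins of the resting oocyte were present in both groups. *Nobox* had 106, 107 and 106 reads *in vivo* and 10, 203 and 27 *in vitro*, and *Figla* had 28, 13 and 27 against 8, 37 and 12. *Lhx8*, which with them maintains the early follicle, had 13862, 673 and 4325 against 431, 368 and 1303. *In vivo* levels of *Nobox* were even, and the *in vitro* values lay on both sides of them. The 4 oocyte genes with the highest mean CPM were the RNA-binding genes *Ybx2* (7556, 30014 and 101427 reads against 3575, 27591 and 3091), *Cpeb1* (23646, 8099 and 21682 against 5097, 11388 and 10712), *Elavl2* (23618, 20369 and 48 against 5272, 15994 and 12558) and *Ddx4*. Their log2 fold changes were -2.24, -0.91, -0.17 and -1.31, none of which passed (edgeR adjusted p = 0.442 to 1.0).

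*Sycp3*, an axis protein of chromosomes during meiotic pairing, a step that precedes follicle formation, was lower *in vitro*. It had 190, 432 and 451 reads *in vivo* and 0, 24 and 0 *in vitro*, with no overlap of the groups (15.9 ± 7.69 and 0.296 ± 0.512 CPM, SD, n = 3 each, edgeR adjusted p = 0.517). *Sycp1*, its partner in the synaptonemal complex, had 1, 21 and 4556 reads against 0, 1 and 0, and *Hormad1* had 0, 6 and 11 against 0 in all 3. The cohesin *Smc1b* had its highest count in *in vitro* library 1, with 882, 3536 and 265 reads against 9442, 22 and 2175. *Rec8* had 0 reads in all 6 libraries. Of the 50 oocyte genes, *Zp1*, *Taf4b* and *Sycp3* were thus the 3 without overlap, 4.0% of the list higher and 2.0% lower beside 1.91% and 3.76% of all genes. These shares of all genes hold as the background for the counts without overlap in each list below, where 1 gene more or less moves a list's share by over 1 percentage point.

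**Figure D4:**
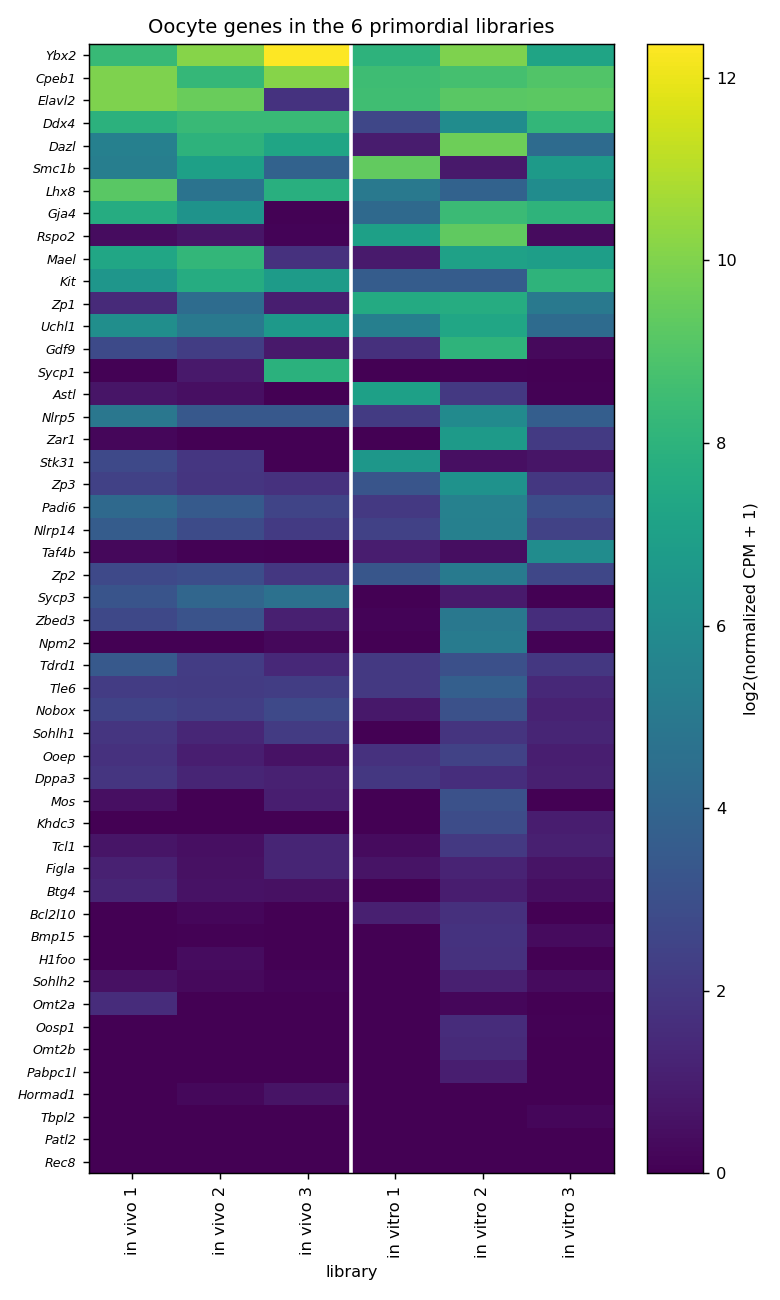
Level of the 50 oocyte genes in the 6 primordial libraries, ordered by mean CPM. Colour gives log2 of normalized CPM plus 1, and the white line parts the *in vivo* from the *in vitro* libraries. *In vitro* library 2 has the highest level for 27 genes, and *Sycp3* is at 0 in *in vitro* libraries 1 and 3.

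The pathway that holds follicles dormant showed no call. Of the 35 genes of the PI3K and mTOR list, all were tested, 20 had over 3 reads in all 6 libraries, and none was called by edgeR or by DESeq2. DESeq2 called 5.20% of all genes. At an unadjusted edgeR p under 0.05, 0 of the 35 were higher and 2 lower, beside 4.51% and 7.23% of all genes. The median log2 fold change was -0.09. *Foxo3*, the transcription factor that keeps the follicle at rest, had 2847, 49263 and 10536 reads *in vivo* and 35575, 23144 and 24956 *in vitro*. Its reads spread more widely *in vivo* than *in vitro*, and the groups overlapped. The log2 fold change of 0.89 did not pass (edgeR adjusted p = 0.909).

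Of the kinases, *Akt1* had 9300, 6503 and 2898 reads *in vivo* and 0, 6965 and 10033 *in vitro*. *Mtor* had 6649, 7544 and 1341 reads against 4373, 19593 and 3710, and *Rictor*, of its second complex, had 33071, 7659 and 29483 against 12917, 4002 and 1229. These 3 genes overlapped between the groups. *Kit*, the receptor that drives the pathway in the oocyte, had 2121, 5471 and 2128 reads against 155, 303 and 5414, and its ligand *Kitl* had 3, 966 and 1469 against 181, 2637 and 13.

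The groups of 4 genes in this list did not overlap. *Rheb*, the activator of mTOR complex 1, was higher *in vitro*, with 0, 978 and 1 reads against 1895, 1096 and 2183 (12.1 ± 20.9 and 94.1 ± 48.9 CPM, SD, n = 3 each). *Tsc1*, which restrains Rheb, was lower *in vitro*, with 761, 2143 and 625 reads against 53, 415 and 25 (48.2 ± 27.1 and 6.79 ± 7.52 CPM). *Pik3r1*, the regulatory subunit of PI3K, had 5654, 5176 and 3063 reads against 6, 1996 and 1621, and the insulin receptor substrate *Irs2* had 30148, 641 and 304 against 1, 47 and 29, both lower *in vitro*. Their edgeR adjusted p values were 0.685, 0.718, 0.836 and 0.359 in this order. Counts of 1 in 35 higher and 3 in 35 lower stand beside the 1.91% and 3.76% of all genes.

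Growth factor signaling was mixed. In the TGF-β and BMP list (44 tested, median 0.32) the 3 genes without overlap that were lower *in vitro* were the ligand *Tgfb3* (8635, 4381 and 2198 reads against 0, 1 and 17), the receptor *Tgfbr1* (366, 613 and 4373 against 3, 22 and 8) and the BMP receptor *Bmpr1a* (416, 5669 and 1497 against 17, 13 and 24). These and the other genes without overlap named under the lists were chosen after their values were seen. DESeq2 called these 3 (adjusted p = 0.000262, 0.00323 and 0.00667), whereas the edgeR adjusted p values were 0.359, 0.387 and 0.434. *Amh*, given above, was the one member higher *in vitro* without overlap (DESeq2 adjusted p = 0.0488, edgeR adjusted p = 0.414). In all, DESeq2 called 3 of the 44 members higher and 4 lower, beside 2.15% and 3.04% of all genes. The signal transducers *Smad4* (3770, 10166 and 43673 against 18562, 12339 and 30997 reads) and *Smad2* (20923, 46098 and 68 against 601, 141 and 17072), the receptor *Bmpr2* and *Smad3* had the most reads, and all 4 overlapped.

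In the Wnt list (49 tested, median 0.00) 1 gene did not overlap. *Znrf3*, which removes Wnt receptors from the membrane, had 75, 86 and 8 reads *in vivo* and 650, 3476 and 1658 *in vitro* (2.27 ± 1.61 and 85.2 ± 41.1 CPM, SD, n = 3 each, edgeR adjusted p = 0.509, DESeq2 adjusted p = 0.0268). Of the 49 genes of the list DESeq2 called 2 higher, *Znrf3* among them, and 2 lower, beside 2.15% and 3.04% of all genes. *Ctnnb1*, β-catenin, had 16308, 4881 and 8741 reads against 19138, 443 and 28467, and *Csnk1a1*, *Lrp6* and *Apc*, the other members with the most reads, overlapped as well.

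Cell cycle genes (60 tested, median 0.15) held 2 genes without overlap in each direction (3.33% each, beside 1.91% higher and 3.76% lower of all genes). *Top2a*, the topoisomerase of dividing cells, had 25, 23 and 1 reads *in vivo* and 2434, 1952 and 1481 *in vitro*, or 0.659 ± 0.537 and 106 ± 59.6 CPM (SD, n = 3 each). This gene was present at similar counts in all *in vitro* libraries, its log2 fold change was 7.32 ± 2.96 (SE, edgeR adjusted p = 0.359), and DESeq2 called it (adjusted p = 2.72e-06). *Mcm3*, of the replication helicase, had 770, 302 and 578 reads against 726, 1735 and 3100. Its reads overlapped and only its CPM did not (24.78 ± 11.85 and 88.76 ± 53.3, SD, n = 3 each). The growth inhibitors *Cdkn1c*, an imprinted CDK inhibitor (9, 1649 and 2700 against 0, 0 and 3), and *Gadd45a* (328, 6 and 42 against 0 in all 3) were lower *in vitro* and were called by DESeq2 too (adjusted p = 0.000514 and 0.0151), with edgeR adjusted p values of 0.363 and 0.361. DESeq2 called 2 of the 60 members of this list higher and 3 lower, beside 2.15% and 3.04% of all genes. The members with the most reads, *Anapc1*, *Anapc5*, *E2f4* and *Mcm2*, overlapped.

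The mitochondrial lists had no edgeR call, and at an unadjusted p under 0.05 they held 1 higher and 5 lower genes of the oxidative phosphorylation list, 4 and 2 of the import list and 2 and 6 of the mitochondrial ribosome list, beside 4.51% higher and 7.23% lower of all genes. Of 85 oxidative phosphorylation subunits (median 0.04), 2 were higher (2.35%) and 5 lower (5.88%) *in vitro* without overlap, beside 1.91% and 3.76% of all genes. Lower were *Ndufs3* of complex I (2828, 2281 and 9544 reads against 6, 139 and 8), *Ndufa4* (241, 111 and 157 against 0, 67 and 33), *Uqcrq* (165, 43 and 26 against 0, 35 and 0), *Uqcr10* (7, 9 and 6 against 0 in all 3) and *Atp5f1* (165, 16 and 28 against 0 in all 3). *Ndufs3* and *Atp5f1* were called by DESeq2 (adjusted p = 0.0173 and 0.00532) and had edgeR adjusted p values of 0.359 and 0.368. Higher *in vitro* were *Cox6c* (12, 14 and 2 against 10, 40 and 20) and the mitochondrial gene *mt-Nd6* (5, 7 and 3 against 46, 24 and 43). In all, DESeq2 called 1 of the 85 subunits higher and 2 lower, beside 2.15% and 3.04% of all genes. The abundant subunit *Atp5b* had 11035, 6361 and 13119 reads *in vivo* and 2680, 20446 and 14816 *in vitro*. Apart from *Ndufs3*, the genes without overlap were thus measured with few reads.

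Import and carrier genes (46 tested, median 0.84) held *Pam16* of the import motor, higher *in vitro* (0, 0 and 10 reads against 954, 568 and 130), and *Samm50* (125, 38 and 258 against 1, 7 and 21) and *Timm21* (722, 5 and 6 against 0 in all 3), lower. DESeq2 called 5 of the 46 higher and none lower, beside 2.15% and 3.04% of all genes. The chaperone *Hspa9* had the most reads of the list, with 4894, 18244 and 11131 against 17967, 8648 and 25601. The mitochondrial ribosome list (78 tested) had a median of -0.86, but only 1 of its genes had over 3 reads in all 6 libraries, and with genes at the floor set to their bound the median was -0.29. *Mrpl39* and *Mrps18c* were its 2 genes without overlap, both lower *in vitro*. *Mrpl43*, chosen after its values were seen, with 3418, 1 and 8996 reads against 0 in all 3, was called by DESeq2 (adjusted p = 3.08e-06) and not by edgeR (0.359). Of the 78 genes of this list DESeq2 called 1 higher and 4 lower, beside 2.15% and 3.04% of all genes.

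Redox enzymes (51 tested, median -0.20) included *Sod1*, the cytosolic superoxide dismutase, with 692, 769 and 1276 reads *in vivo* and 2035, 2959 and 1777 *in vitro*. The levels were 41.6 ± 21.6 and 114 ± 30.5 CPM (SD, n = 3 each), and the log2 fold change of 1.45 ± 2.74 (SE) did not pass (edgeR adjusted p = 0.954). Lower *in vitro* without overlap were the mitochondrial thioredoxin *Txn2* (1674, 771 and 1672 against 50, 2 and 18) and *Glrx3* (3296, 1644 and 15359 against 598, 3 and 851). The glutathione transferases *Gstm1* (78914, 15933 and 13064 against 104, 1092 and 13009) and *Gstm2* (20156, 10924 and 15 against 26116, 17184 and 40887) had the most reads and overlapped.

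Genes of glycolysis and hypoxia (30 tested, median 0.26) had members in both directions. *Tpi1* (30, 417 and 1 reads against 2907, 2296 and 3215) and *Pgam1* (4, 293 and 1 against 524, 14359 and 988) were higher *in vitro* without overlap, and *Pgk1* (6927, 9892 and 7205 against 216, 2 and 746) and *Ndrg1* (48, 6 and 16 against 0 in all 3) were lower. *Tpi1*, *Pgam1* and *Pgk1* encode enzymes of the same glycolytic chain. DESeq2 called *Pgam1* (adjusted p = 0.0379, edgeR adjusted p = 0.437). Of the 30 genes of the list it called 2 higher and 0 lower, beside 2.15% and 3.04% of all genes. *Pgk1* was even *in vivo* (346 ± 43.3 CPM against 17.2 ± 18.1 *in vitro*, SD, n = 3 each, edgeR adjusted p = 0.454), and *Tpi1* was even *in vitro* (150 ± 62.3 CPM against 5.60 ± 8.57 *in vivo*, adjusted p = 0.481). *Hif1a* had 1207, 5836 and 121 reads against 9968, 45610 and 432.

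In the sterol list (24 tested, median 0.23) 2 genes did not overlap, both higher *in vitro* (8.33%, beside 1.91% of all genes). They were *Insig1*, a sensor of sterol level (83, 4142 and 17 reads against 10192, 8273 and 3633), and the demethylase *Cyp51* (0, 3 and 0 against 11, 37 and 159). The synthase *Hmgcs1* had 1198, 948 and 0 reads against 0, 11776 and 6636, and overlapped. No sterol gene was lower without overlap, beside 3.76% of all genes. DESeq2 called *Cyp51* (adjusted p = 0.00992), which had an edgeR adjusted p of 0.463. Of the 24 genes of the list it called 1 higher and 0 lower, beside 2.15% and 3.04% of all genes.

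Stress and immediate early genes (42 tested, median 0.15) had 3 genes without overlap. Beside *Jun*, these were *Fosl2*, another AP-1 factor (18, 29 and 2 reads against 137, 3046 and 457), and *Hspa5*, the main chaperone of the endoplasmic reticulum (13541, 6650 and 3311 against 12428, 23867 and 18166), both higher *in vitro*. DESeq2 called *Fosl2* higher (adjusted p = 0.0101, edgeR adjusted p = 0.448) and *Jun* lower. These were 1 of the 42 genes in each direction, beside 2.15% higher and 3.04% lower of all genes. *Hspa5* was even *in vitro*, at 885 ± 7.94 CPM, against 333 ± 217 CPM *in vivo* (SD, n = 3 each, edgeR adjusted p = 0.790). The chaperones *Hsp90ab1* and *Hspa8* had 36243 to 54084 and 30480 to 53603 reads *in vivo* and 26546 to 76366 and 1825 to 55033 *in vitro*.

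Of the DNA damage and apoptosis list (44 tested, median -0.66) 3 genes were lower *in vitro* without overlap (6.82%, beside 3.76% of all genes) and none was higher (beside 1.91%). *Trp63*, the p53 relative that guards the oocyte genome, had 5250, 3192 and 1849 reads *in vivo* and 181, 3 and 543 *in vitro* (147 ± 68.8 and 13.1 ± 13.1 CPM, SD, n = 3 each, edgeR adjusted p = 0.639). The repair kinase *Prkdc* had 38, 503 and 1207 against 0, 2 and 19, and the survivin gene *Birc5* had 85, 78 and 49 against 4, 48 and 27. DESeq2 called *Prkdc* (adjusted p = 0.0329, edgeR adjusted p = 0.468). Of the 44 genes of the list it called 1 higher and 2 lower, beside 2.15% and 3.04% of all genes. *Trp63* was thus present in all *in vivo* libraries and in 2 of the 3 *in vitro* libraries above 3 reads.

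Cytosolic ribosomal proteins were measured in nearly every library. Of 77 genes tested, 73 had over 3 reads in all 6 libraries (94.8%), the median log2 fold change was 0.05, and the middle 50% of the genes lay between -0.33 and 0.70, where that of all genes spanned -2.82 to 1.72. *Rps25* (2587, 1542 and 2606 reads against 227, 733 and 637), *Rps14* (2253, 5578 and 3091 against 96, 1991 and 141) and *Rpl8* (448, 469 and 773 against 166, 203 and 353) were lower *in vitro* without overlap, and *Rpl24* (2901, 2621 and 465 against 1948, 3426 and 6770) was higher. None of the 77 was called by either tool, and none had an unadjusted edgeR p under 0.05. Ribosomal protein genes have many near-identical processed copies, so their counts are uncertain. The median of 11 of the 14 lists changed sign under at least 1 of the alternative fits. Across these fits the median ranged from 0.228 to 2.679 for the mitochondrial import list. It ranged from 0.0 to 1.045 for the stress list and from -1.209 to 0.0 for the DNA damage list. No list was tested as a set, so no direction is given for a list. The spans of many named members, introns included, overlap another annotated gene, and their counts may be uncertain. Among those without overlap of the groups, *Zp1*, *Tsc1*, *Tgfbr1*, *Znrf3*, *Txn2*, *Glrx3*, *Hspa5*, *Pgk1*, *Pgam1*, *Insig1* and *Mcm3* lie clear of other genes, whereas *Rheb*, *Top2a*, *Trp63*, *Pik3r1*, *Sod1*, *Tpi1*, *Sycp3* and *Ndufs3* do not.

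**Figure D5:**
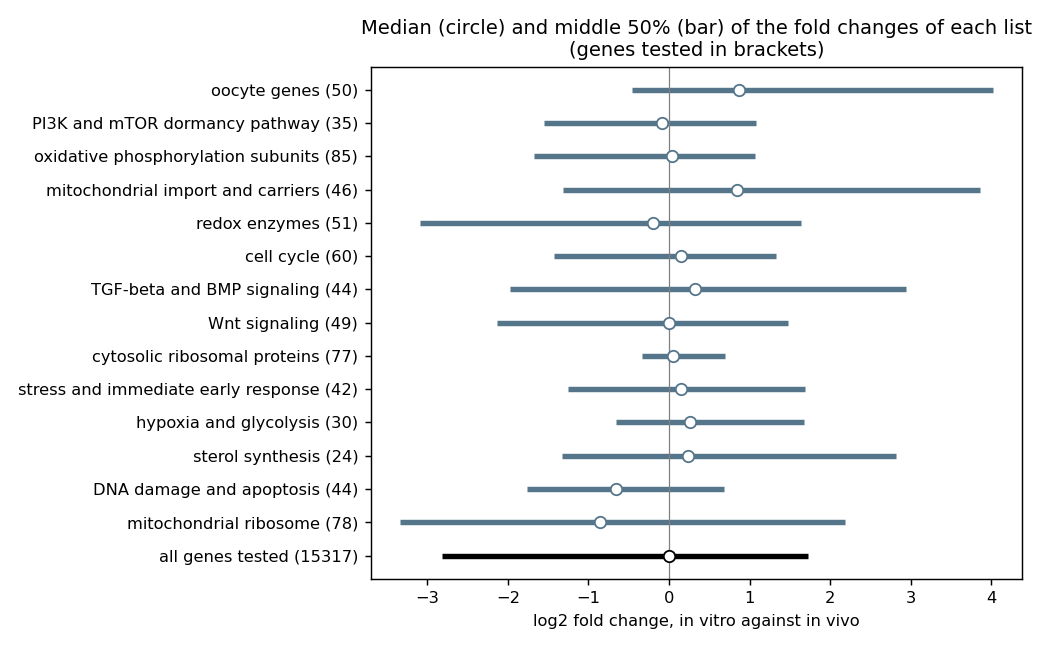
Log2 fold changes of each gene list, *in vitro* against *in vivo*. The circle is the median and the bar the middle 50% of the genes, with the number tested in brackets and all 15317 genes as the last row. Ribosomal protein genes span -0.33 to 0.70, and the bar of every list crosses 0.

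The genes with the highest mean CPM over the 6 libraries included *Actb*, *Ahnak*, *Neb*, *Usp9x*, *Eif4g2*, *Huwe1*, *Ubb*, *Hnrnpa1* and *Son*, which encode cytoskeletal, ubiquitin system, translation and RNA-processing proteins. *Actb*, β-actin, had 297816, 565571 and 155541 reads *in vivo* and 236242, 405497 and 565530 *in vitro*. *Ahnak*, a giant scaffold protein, had 392223, 278077 and 314800 reads against 110545, 114411 and 82257, with no overlap and a log2 difference of -1.43 ± 0.837 (SE, edgeR adjusted p = 0.461). *Huwe1*, a giant ubiquitin ligase, had 103269, 126245 and 191552 against 56472, 62314 and 91299, also without overlap (-0.82 ± 0.963, adjusted p = 0.814). For the others named here beside *Neb* the groups overlapped.

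*Neb*, *Ahnak* and *Huwe1* have long transcripts, so the fold changes were set against exon length. Among the longest 10% of genes (summed exons of 9681 bases or more) 114 of 1530 were lower *in vitro* without overlap (7.45%) and 51 higher (3.33%), whereas among the shortest 10% 31 of 1532 were lower (2.02%) and 8 higher (0.522%). Longer genes also held more reads, with 694 of the longest but 86 of the shortest above 3 reads in all 6 libraries. Among those genes the median log2 fold change was -0.17 for the longest, -0.03 for the shortest and between -0.02 and 0.31 for the 8 length classes between them. Whether length bears on the values of *Neb* was not tested.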

How the data were processed

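The values are read counts per gene that the authors deposited without normalization, made by trimming with Trim Galore 0.4.1, mapping to mm10 with TopHat2 and counting with featureCounts (the submitters' processing notes). How strand and multiply mapped reads were counted is not given in the sources used here. The authors also deposited TPM values, scaled by gene length and library total, for 28252 genes, which served only in alternatives. Of 53715 genes, 53620 were matched by identifier to GENCODE M21. Symbols of the lists were matched by name, and 2 through older names.

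Counts were fitted with edgeR 4.0.16 in R 4.3.3 (TMM, quasi-likelihood test, robust estimation) over the 12 LCM libraries in 4 groups, for 15317 genes with at least 10 counts in total. The code was run on simulated counts with a far smaller spread between replicates than the real libraries. That run does not show how the test behaves at the real spread. The 6 MII libraries, prepared by another method, were not used here. Each SE of an edgeR log2 fold change is its absolute value divided by the square root of the test's F statistic. It is thus derived from the test and is not a fitted SE. DESeq2 1.42.0 and limma 3.58.1 gave alternatives. The members of the comparison and the gene lists were chosen with earlier results of these data known. Named were, per direction, the 12 genes without overlap and with a symbol other than a gene model of smallest p, the 4 members of each list with the highest mean CPM, any oocyte, PI3K or marker gene, the 10 genes with the highest mean CPM and the 8 genes without overlap of smallest DESeq2 adjusted p. A fold against a group at 0 was taken against 3 counts per library and is a lower bound, and it covers counting error only, since there are no molecular identifiers. Promoter sequences come from RefSeq. Some genes that this rule selects are not reported here.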

Additional observations from a re-analysis of the deposited data

Results flagged for a closer look

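The difference of the culture effect between primordial and primary follicles passed the threshold for 7 of the genes named by rule. The test was the interaction term of the edgeR fit (primordial *in vitro* against *in vivo* minus primary *in vitro* against *in vivo*, 16 genes called in all). These genes were chosen by the primordial effect, a part of that term, so their calls are not separate evidence. The difference was 13.29 on the log2 scale for *D6Ertd527e*, 12.64 for *Ptp4a1*, 12.03 for *Tubb6* and 13.42 for *Tubb3*, which rose in primordial oocytes *in vitro* and had mean levels of 553.7, 801.6, 458 and 1433.5 CPM in primary oocytes *in vivo* and 474, 223, 532 and 358 CPM *in vitro*. It was -14.90 for *Hist1h2ai*, with 51.1 and 82.5 CPM in primary oocytes. For *Slc33a1* (-18.45, adjusted p = 0.0392) the reads were 970, 2896 and 31286 in primordial oocytes *in vivo*, 0, 1 and 1 *in vitro*, 1, 8 and 7 in primary oocytes *in vivo* and 435, 22 and 49 *in vitro*. For *Homer1* (-25.89, adjusted p = 0.0447) they were 9476, 2007 and 7, then 0 in all 3, then 1, 0 and 0, then 2258, 1455 and 440. *Mrpl43*, named after its values were seen, passed the same test (-24.32, adjusted p = 0.0380). The groups of 3 were too small to look for single outlying libraries.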

How the results depend on the processing

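The 5 calls stayed 5 with DESeq2's size factors, TMMwsp, no robust estimation and no fold change threshold, and were 4 with library size alone. They became 0 with filterByExpr, without a filter on low counts and with over 10 counts in 3 primordial libraries (1241, 1794 and 359 at an unadjusted p under 0.05), 9 (2 of them shared) with only the 6 primordial libraries, 796 (4 shared) with DESeq2's defaults, 1727 (5 shared) without its filters, 33 (0 shared) with limma-voom and quality weights, 0 with log2 TPM values in limma (pseudocount 1 or 0.1) (506 and 542 at an unadjusted p under 0.05) and 2 (0 shared) without a filter on TPM. Fits that left out 1 library gave 0 to 3 calls, and 0 to 5 of the 16 calls for the difference from primary follicles, which were 528 with DESeq2's defaults and otherwise 12 to 17 with other scaling. The count of genes without overlap, 869, was 707 with a floor of 10 reads, 886 with DESeq2's size factors and 867 with library size alone. *Tubb3* reversed without *in vitro* library 2 (-1.44), and its log2 fold change was up to 14.08 without another library.

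Deviations of *in vivo* and *in vitro* libraries with the same replicate number correlated at -0.029 to 0.013. Those of libraries with different numbers correlated at -0.036 to 0.036. Whether the replicate numbers pair the libraries was not tested. With the replicate number as a block, 0 genes were called in the comparison (203 at an unadjusted p under 0.05) and 0 for the difference.

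Of 659 refitted values of the 32 genes that were called, led the genes without overlap or had the smallest DESeq2 adjusted p, 535 stayed on their side of the threshold in the same direction, 63 lost the call, 60 gained it and 1 reversed. Genes at or under 3 reads in a library (0.111 to 0.216 CPM) could not be told from absent ones at this depth. The cause of these changes was not tested.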
